A study of Mus musculus with 21 samples.

Results

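The acid pump of the gastric parietal cell and the channels and transporters that serve it were followed across 21 glandular stomachs of 6 mouse genotypes. The set was chosen by gene name, as Atp4a, Atp4b, Kcne2, Kcnq1, Slc26a7, Slc26a9, Clic6 and Slc4a2, and every probe set annotated to 1 of these genes alone was taken. Of the 8 genes, 7 were measured, by 9 of the 45037 probe sets on the array, and they stand among 18193 genes with a probe set of their own. Slc26a9 had no such probe set in the annotation used and was not analysed here. Where a gene had more than 1 probe set, the one with the highest mean signal stands for it and the other served as a check.

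All mice carried the C57BL/6 label, were labelled female and were between 18 and 65 weeks old, with no age given per genotype. Wild-type mice (n = 3) were compared with K19-Wnt1 (n = 5), K19-Nog (n = 2) and K19-C2mE (n = 3) mice and with the compound strains K19-Nog/C2mE (n = 3) and K19-Wnt1/C2mE (n = 5). In each strain the promoter of the keratin gene K19 directs the transgenes to the epithelium of the stomach. C2mE denotes the joint expression of COX-2 and mPGES-1, the enzymes that convert arachidonic acid to prostaglandin E2, Wnt1 activates canonical Wnt signalling through beta-catenin, and Nog (noggin) is a secreted BMP antagonist. Per the study, the 3 strains with C2mE form gastric tumors, which are hyperplastic in K19-C2mE, dysplastic in K19-Wnt1/C2mE and hamartomas in K19-Nog/C2mE. Each value below is the log2 of an RMA signal from the array of a single mouse, and replicate numbers are those of the sample titles.

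Parietal cells secrete hydrochloric acid into the gland lumen. The H+/K+-ATPase exchanges cytoplasmic protons for luminal potassium, and it consists of a catalytic alpha subunit (Atp4a) and a glycosylated beta subunit (Atp4b) that carries the enzyme to the apical membrane. Potassium has to return to the lumen for the pump to run, through an apical channel whose pore is Kcnq1 and whose beta subunit in these cells is Kcne2. Chloride leaves across the apical membrane, and on the basolateral side the anion exchangers Slc4a2 (AE2) and Slc26a7 let bicarbonate out and chloride in. Clic6 is a member of the chloride intracellular channel family that was first described in rabbit parietal cells as parchorin.

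RefSeq promoter windows (GRCm38.p6, 300 bases spanning an annotated start) were on hand for 3 of the 7 measured genes, Atp4a, Kcne2 and Slc4a2. They are given as a description, and a link between these sequences and the results that follow was not tested. A second Slc4a2 window (chr5:24425594-24425893, GC 61.3%) was searched like the others, held no match and is not printed. The windows were searched on both strands for GATAA (core of the sites that GATA factors bind), AAGGTCA (half-site of estrogen-related receptors) and TATAAA (core promoter box), of which no match overlaps another, and matches are in capitals. GATAA occurs in 25.4% of the 32851 windows of the same length in the table, AAGGTCA in 4.72% and TATAAA in 13.6%. Only the downstream of the 2 Kcne2 windows holds a match, a GATAA on the gene's strand at position -197 relative to the start. GC content is 52.7% for Atp4a, 53.0% and 48.7% for the Kcne2 windows and 72.0% for the first Slc4a2 window. The windows lie on the plus strand at chr7:30711959-30712258 (Atp4a), chr16:92292139-92292438 and chr16:92295366-92295665 (Kcne2) and chr5:24424982-24425281 (Slc4a2).
Atp4a: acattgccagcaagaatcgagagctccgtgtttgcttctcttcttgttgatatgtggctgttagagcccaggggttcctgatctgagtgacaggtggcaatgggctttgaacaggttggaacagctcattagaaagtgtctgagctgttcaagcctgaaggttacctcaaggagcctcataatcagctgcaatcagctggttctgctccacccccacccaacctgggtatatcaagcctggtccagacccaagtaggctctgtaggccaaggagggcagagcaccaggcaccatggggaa
Kcne2, first start: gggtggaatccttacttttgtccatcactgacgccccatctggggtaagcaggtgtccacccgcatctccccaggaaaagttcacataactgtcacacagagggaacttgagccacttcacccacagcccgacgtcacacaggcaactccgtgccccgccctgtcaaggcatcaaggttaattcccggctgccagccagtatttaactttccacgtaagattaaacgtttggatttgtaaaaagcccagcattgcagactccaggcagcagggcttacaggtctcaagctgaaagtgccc
Kcne2, second start: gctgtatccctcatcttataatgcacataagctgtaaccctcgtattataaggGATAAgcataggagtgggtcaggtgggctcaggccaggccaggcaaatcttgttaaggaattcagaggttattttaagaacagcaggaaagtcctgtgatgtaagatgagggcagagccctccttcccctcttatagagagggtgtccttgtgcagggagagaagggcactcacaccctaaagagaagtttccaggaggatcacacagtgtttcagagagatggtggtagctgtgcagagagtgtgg
Slc4a2, first start: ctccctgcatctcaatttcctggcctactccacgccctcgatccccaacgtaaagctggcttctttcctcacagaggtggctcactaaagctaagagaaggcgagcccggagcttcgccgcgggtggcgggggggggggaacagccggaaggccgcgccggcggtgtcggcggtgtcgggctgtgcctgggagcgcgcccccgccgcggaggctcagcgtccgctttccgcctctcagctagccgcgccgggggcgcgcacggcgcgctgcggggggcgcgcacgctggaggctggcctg

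Features of the arrays as a whole touch the comparisons. Array medians were alike, between 65.96 and 68.76 on the linear scale. Although every mouse is labelled female, Y-linked genes were high in 9 of the 21 arrays, namely wild-type 1 and 3, K19-Wnt1 1, 2, 4 and 5, K19-C2mE 2 and 3 and K19-Wnt1/C2mE 5. Counts of changed genes are therefore also given without those arrays, which leaves wild-type, K19-Wnt1 and K19-C2mE with 1 array each, and a lone array is then assumed to vary like the other genotypes. Forestomach squamous genes, which should be scarce in glandular stomach, had a mean log2 signal of 8.90 to 11.04 in K19-C2mE, 6.47 to 9.51 with Wnt1 added and 6.00 to 6.33 with Nog added, against 5.70 to 5.87 in the others except 7.55 in wild-type 2. Their part in the results was not tested apart from a fit that takes this level as a covariate. Some genotypes do not overlap in this level, as K19-C2mE and K19-Nog/C2mE. In such comparisons the fit cannot separate the level from the genotype well, so a call lost there is hard to read. The files hold no detection calls, so a low signal cannot be told from background.

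**Figure D1:**
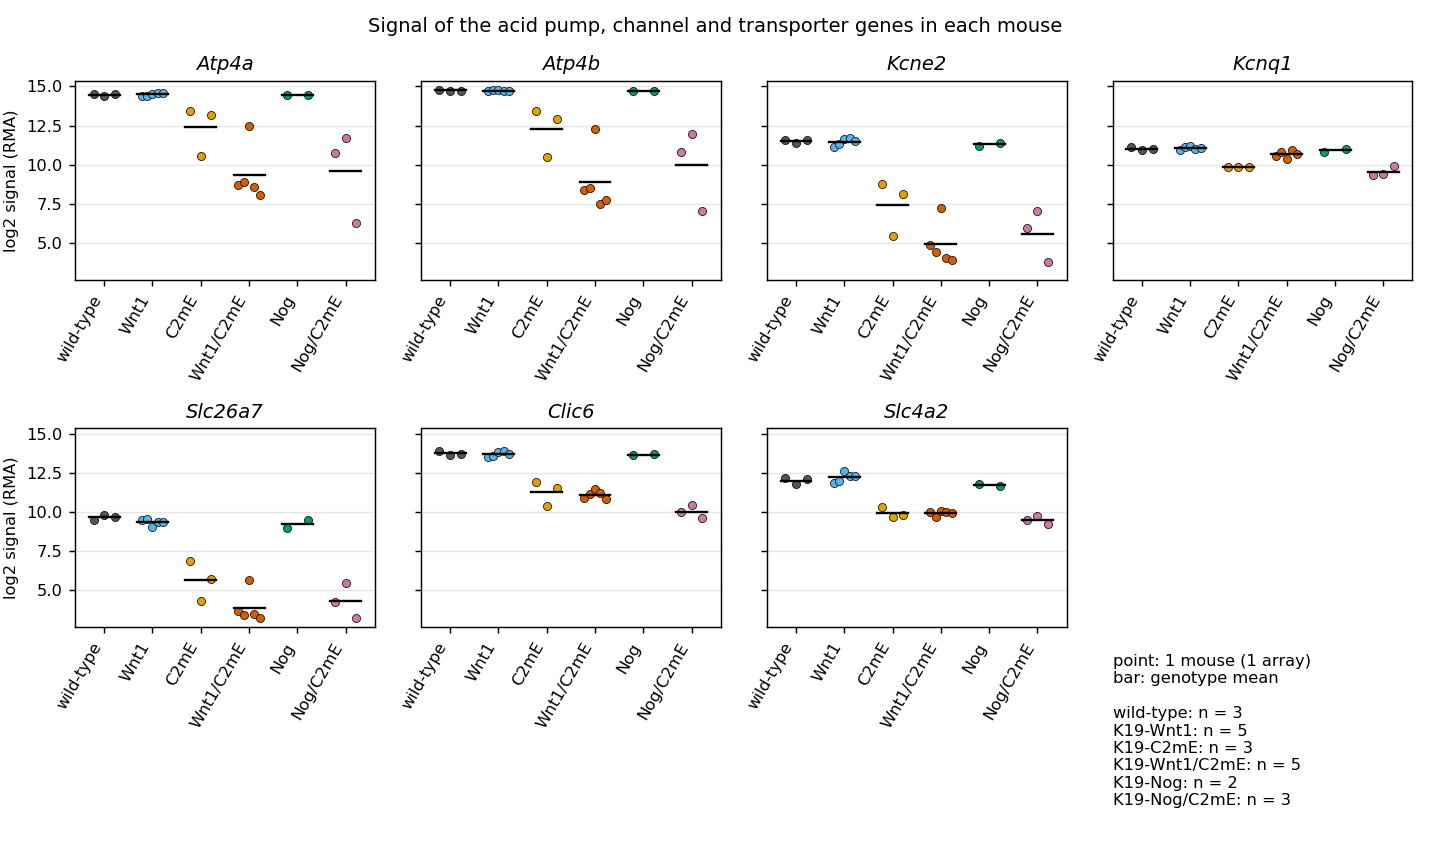
Log2 RMA signal of the 7 measured genes in each mouse, by genotype. Points are mice and bars are genotype means. All genes but Kcnq1 show the 11 mice with C2mE below the 10 mice without it, and the pump, Kcne2 and Slc26a7 spread most among the C2mE mice. The share of all probe sets with such a separation was not computed.

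The catalytic subunit of the pump, Atp4a (probe set 1421286_a_at, chromosome 7), was high and even in the stomach without C2mE. It read 14.52, 14.40 and 14.52 in wild-type, 14.40, 14.38, 14.54, 14.59 and 14.57 in K19-Wnt1 and 14.45 and 14.46 in K19-Nog. No genotype among these spanned more than 0.21, at the upper end of the scale, since array maxima were 15.19 to 15.29. With C2mE the signal was 13.41, 10.59 and 13.18 in K19-C2mE. The K19-Nog/C2mE mice read 10.74, 11.72 and 6.26, and the K19-Wnt1/C2mE mice 8.68, 8.93, 12.48, 8.61 and 8.07. Every C2mE mouse was below every mouse without C2mE, but the mice of 1 genotype were as much as 5.45 apart. Taken as a share of the wild-type mean, K19-C2mE 1 kept 47.5% of the Atp4a signal, K19-Wnt1/C2mE 5 kept 1.17% and K19-Nog/C2mE 3 kept 0.336%. Fewer parietal cells and less of the RNA in each parietal cell cannot be told apart in such whole-tissue samples, here or for any gene below.

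Atp4b (1448911_at, chromosome 8), the beta subunit, followed the alpha subunit closely. Without C2mE its 10 signals ran from 14.71 to 14.77, and their SD within genotypes was 0.02. With C2mE they were 13.45, 10.50 and 12.92 in K19-C2mE, 8.38, 8.52, 12.27, 7.49 and 7.73 with Wnt1 added and 10.83, 11.99 and 7.08 with Nog added. The mice that kept most Atp4a also kept most Atp4b in all 3 strains, namely K19-C2mE 1, K19-Wnt1/C2mE 3 and K19-Nog/C2mE 2. The deviations of the subunits from their genotype means correlated at r = 0.99 (rho = 0.98) over the 11 C2mE arrays, as a description, since both signals come from the same array and tissue piece.

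Against wild-type, Atp4a differed by -5.13 in K19-Wnt1/C2mE (SE 0.98, adjusted p = 4.32e-04 by limma, 35.0-fold) and by -4.91 in K19-Nog/C2mE (SE 1.10, adjusted p = 0.00225). Atp4b differed by -5.87 (SE 0.97, adjusted p = 9.25e-05, 58.4-fold) and by -4.78 (SE 1.08, adjusted p = 0.00242). With each array left out in turn, the K19-Nog/C2mE values ran from -5.98 to -3.26 for Atp4a and from -5.79 to -3.33 for Atp4b, both smallest without K19-Nog/C2mE 3, and stayed called. The methods' t-test lost both (adjusted p = 0.129 and 0.108). In K19-C2mE neither subunit passed the test, with -2.09 for Atp4a (95% interval -4.39 to 0.21, adjusted p = 0.197) and -2.46 for Atp4b (interval -4.72 to -0.19, adjusted p = 0.117), although none of these arrays overlapped wild-type. Without K19-C2mE 2 they were -1.19 and -1.56. The Atp4b difference in K19-C2mE passed when only those genotypes were fitted (adjusted p = 0.0307), when each genotype had its own weight (0.0408) or without K19-Wnt1/C2mE 3 (0.0431).

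Kcne2 (1449421_a_at, chromosome 16), the potassium channel beta subunit of the parietal cell, fell in all 3 C2mE strains. Its signal was 11.61, 11.40 and 11.59 in wild-type, 11.12 to 11.74 in K19-Wnt1 and 11.23 and 11.40 in K19-Nog. It dropped to 8.79, 5.46 and 8.12 in K19-C2mE, to 4.91, 4.41, 7.27, 4.03 and 3.95 with Wnt1 added and to 5.96, 7.07 and 3.78 with Nog added. The lowest of these signals ranked at the 13.7th percentile of their array and the highest at the 83.9th, whereas in wild-type Kcne2 stood at the 97.7th to 98.0th. The difference from wild-type was -4.07 in K19-C2mE (SE 0.83, 16.8-fold, adjusted p = 0.00141). It was -6.62 with Wnt1 added (SE 0.74, 98.2-fold, adjusted p = 1.04e-06) and -5.93 with Nog added (SE 0.83, 60.9-fold, adjusted p = 2.5e-05). Since the low signals cannot be told from background, the size of this fall is not exact. By the methods' t-test the K19-C2mE call was lost (adjusted p = 0.0807).

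Kcnq1 (1449464_at, chromosome 7), the pore of the same channel, behaved differently. Without C2mE the signal ran from 10.82 to 11.18. In K19-C2mE it was 9.87, 9.86 and 9.89, in K19-Nog/C2mE 9.38, 9.40 and 9.93, and in K19-Wnt1/C2mE 10.57, 10.84, 10.34, 10.95 and 10.70. K19-C2mE and K19-Nog/C2mE thus lay wholly below wild-type, with differences of -1.15 (SE 0.14, adjusted p = 7.44e-06, 2.22-fold) and -1.45 (SE 0.14, adjusted p = 3.29e-07, 2.74-fold). The mice with Wnt1 and C2mE overlapped wild-type, at -0.35 (SE 0.13, adjusted p = 0.0384, 1.27-fold). That last call is fragile. It was lost without any 1 of wild-type 1, 2 and 3 and K19-Wnt1/C2mE 1, 3 and 5 (adjusted p = 0.052 to 0.142), and the exact permutation test of these mice, two-sided, gave p = 0.0714 where 0.0179 is the smallest possible. Kcnq1 was the least lowered gene in 10 of the 11 C2mE mice, the exception being K19-C2mE 1, where Atp4a was.

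Among the anion transporters, Slc26a7 (1436279_at, chromosome 4) fell in all 3 C2mE strains. Wild-type read 9.51, 9.79 and 9.71, the K19-Wnt1 arrays 9.08 to 9.54 and K19-Nog 8.99 and 9.48. The C2mE strains read 6.90, 4.36 and 5.74, then 3.66, 3.45, 5.64, 3.48 and 3.23 with Wnt1, and 4.28, 5.50 and 3.26 with Nog. The difference was -4.0 in K19-C2mE (SE 0.59, 16.0-fold, adjusted p = 6.23e-05). It reached -5.78 with Wnt1 added (SE 0.53, 54.9-fold, adjusted p = 7.94e-08), and with Nog added it was -5.32 (SE 0.59, 40.1-fold, adjusted p = 1.67e-06). The lowest array, K19-Wnt1/C2mE 5, placed it at the 4.56th percentile of signals, and no detection call is at hand to set it against background, so the size of the fall is not exact. The dimmer check probe set 1425841_at gave -2.16, -2.46 and -2.65, in the same direction but smaller.

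Clic6 and Slc4a2 fell by less and with less spread. Clic6 (1454866_s_at, chromosome 16) lay between 13.50 and 13.89 without C2mE. It read 11.90, 10.42 and 11.55 in K19-C2mE, 10.91, 11.15, 11.46, 11.20 and 10.85 with Wnt1 added and 10.01, 10.47 and 9.60 with Nog added. K19-Nog/C2mE was lowest, at -3.72 (SE 0.27, adjusted p = 8.41e-09), with -2.46 and -2.64 in the other strains (adjusted p = 1.93e-06 and 7.14e-08), and its check probe set 1434165_at gave -2.56, -2.75 and -3.66 for C2mE alone, with Wnt1 and with Nog. Slc4a2 (1416637_at, chromosome 5), the exchanger that other tissues also use, went from 11.66 to 12.65 without C2mE to 9.27 to 10.36 with it. Its differences of -2.05, -2.09 and -2.51 (SE 0.19, 0.17 and 0.19, adjusted p = 2.72e-07, 1.61e-08 and 1.45e-08) lay close together, and the 11 mice kept 14.8% to 31.6% of the wild-type signal.

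**Figure D2:**
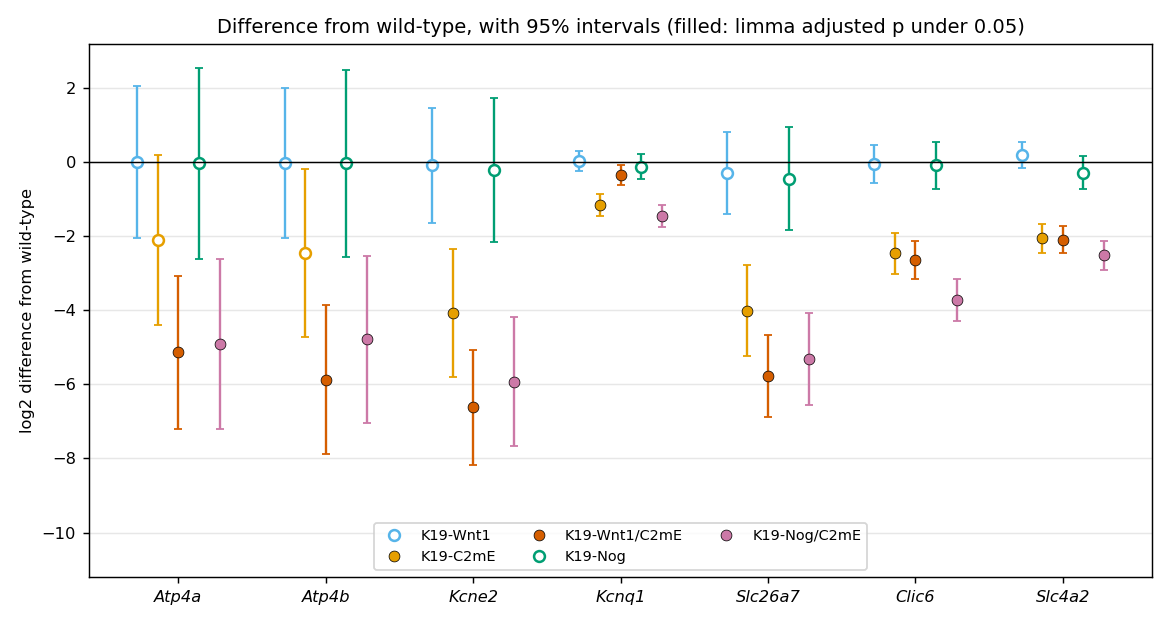
Log2 difference from wild-type for each gene and transgenic genotype, with 95% intervals from the limma fit. Filled points have an adjusted p under 0.05. The pump subunits in K19-C2mE are open although their arrays do not overlap wild-type, and Kcnq1 in K19-Wnt1/C2mE lies closest to 0 among the filled points.

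In counts, 5 of the 7 genes fell in K19-C2mE, where 11.1% of all probe sets were called lower. All 7 fell in K19-Wnt1/C2mE against a background of 18.9%, and all 7 in K19-Nog/C2mE against 14.4%. The median differences of the set were -2.46, -5.13 and -4.78, while the medians over all probe sets were -0.04, -0.04 and -0.03. Without the 9 arrays high in Y-linked genes the counts were 1 (Slc4a2), 4 (Kcne2, Slc26a7, Clic6 and Slc4a2) and 5 (those with Kcnq1), and every one of these genes kept its direction. With the squamous level as a covariate the counts against wild-type lost no gene other than Kcnq1 in K19-Wnt1/C2mE (adjusted p = 0.0939). With Wnt1 or Nog alone, 0 of the 7 were called. Differences from wild-type ran from -0.30 (Slc26a7) to 0.21 (Slc4a2) in K19-Wnt1, where limma called 0.0155% of probe sets in either direction, and from -0.44 (Slc26a7) to -0.02 (Atp4b) in K19-Nog, where it called 5.23%. At an unadjusted p under 0.05 the count was also 0 in both. The intervals for the pump were wide, because the fit pools the wide spread of the C2mE mice. Atp4a had -2.05 to 2.07 in K19-Wnt1 and -2.6 to 2.55 in K19-Nog. Kcne2 had -1.63 to 1.48 and -2.16 to 1.73, and Slc26a7 had -1.4 to 0.81 and -1.82 to 0.95. For the pump, Kcne2 and Slc26a7 this test could therefore not detect changes within intervals of that width.

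The single transgenes served as another baseline for C2mE. Against K19-Wnt1, all 7 genes fell in K19-Wnt1/C2mE (background 18.8%), with Kcne2 at -6.54, Atp4b at -5.86, Slc26a7 at -5.48, Atp4a at -5.14, Clic6 at -2.59, Slc4a2 at -2.29 and Kcnq1 at -0.39. The exact permutation test of 5 against 5 mice, two-sided, gave p = 0.00794, the smallest it can give, for all of them but Kcnq1, which had p = 0.0159 and an adjusted p of 0.00876 by limma, or 0.0874 with the squamous covariate. Against K19-Nog, all 7 fell in K19-Nog/C2mE (background 10.6%), with Kcne2 at -5.71 (adjusted p = 0.000152) and Kcnq1 at -1.34 (adjusted p = 4.41e-06). The pump calls in that comparison, at -4.89 and -4.76 (adjusted p = 0.0068 and 0.00722), rested on both K19-Nog mice. Without either of these 2 arrays they ended at adjusted p = 0.0504 to 0.0559. Without the Y-high arrays 4 and 5 genes were called in these comparisons.

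Whether a further pathway altered the C2mE level was asked directly. Adding Wnt1 to C2mE changed 3 of the 7 genes (background 5.71% in either direction). Kcnq1 was higher by 0.81 (SE 0.13, adjusted p = 0.000954), with all 5 K19-Wnt1/C2mE mice above all 3 K19-C2mE mice and a two-sided exact permutation p of 0.0179, the smallest possible. Atp4b and Kcne2 were lower by limma, at -3.41 (SE 0.97, adjusted p = 0.0429) and -2.54 (SE 0.74, adjusted p = 0.0499), but their arrays overlapped and the exact permutation p was 0.0714 and 0.0536. Both calls sat at the threshold and were lost in 16 and 17 of the 21 fits that leave out an array, among them all 3 wild-type and all 5 K19-Wnt1 arrays. Without K19-C2mE 1 the values were -2.83 and -1.88 (adjusted p = 0.211 and 0.272). Without K19-Wnt1/C2mE 3, Atp4a and Slc26a7 passed as well (adjusted p = 0.0109 and 0.00604), as they did without K19-C2mE 2 (0.0381 and 0.0108) or K19-Nog/C2mE 3 (0.0154 and 0.035), and Slc26a7 without K19-Nog/C2mE 2 (0.0382). Clic6 and Slc4a2 stood at -0.18 (interval -0.68 to 0.33) and -0.03 (interval -0.39 to 0.32). None of the 3 calls remained without the Y-high arrays or with the squamous level as a covariate, where Kcnq1 was still 0.81 higher in both (adjusted p = 0.331 and 0.051).

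Adding Nog to C2mE changed 1 gene, Clic6, at -1.26 (SE 0.27, adjusted p = 0.00918, background 4.78%). The arrays overlapped, as K19-C2mE 2 (10.42) was below K19-Nog/C2mE 2 (10.47), and the call was lost without K19-C2mE 1 or 3 (adjusted p = 0.0506 and 0.0579), without the Y-high arrays (0.0804) and with the squamous level as a covariate (-0.66, adjusted p = 0.817). The other 6 genes were also lower, by values from -0.30 for Kcnq1 to -2.82 for Atp4a, with adjusted p of 0.172 or more, though Kcnq1 passed without K19-Nog/C2mE 3 (-0.48, adjusted p = 0.0496). Between the compound strains 2 genes differed (background 14.1%). K19-Wnt1/C2mE exceeded K19-Nog/C2mE by 1.11 for Kcnq1 (SE 0.13, adjusted p = 1.54e-05) and by 1.09 for Clic6 (SE 0.24, adjusted p = 0.00489), with no overlap of arrays in either. The Clic6 call was lost with the squamous covariate (0.82, adjusted p = 0.0895), and the other 5 genes were not called, the interval of Atp4a running from -2.28 to 1.84. The interaction terms, which ask whether C2mE acted differently in the presence of Wnt1 or Nog, called 0 of the 7 genes each (background 0.691% for Wnt1 and 0.784% for Nog), while 4 and 1 had an unadjusted p under 0.05. Closest to the threshold was Kcnq1 with Wnt1, at 0.77 (SE 0.18, adjusted p = 0.0536). It passed under 7 other settings (adjusted p = 0.0205 to 0.0486) and without K19-Wnt1/C2mE 3, K19-Nog/C2mE 1 or K19-Nog/C2mE 3. The Nog term of Clic6, at -1.18, passed without K19-C2mE 2 (-1.61, adjusted p = 0.00687).

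The order of the genotypes followed from this. For the pump, Kcne2 and Slc26a7, the 3 genotypes without C2mE held the top places, each overlapping its neighbour in the order, K19-C2mE came next, and K19-Nog/C2mE and K19-Wnt1/C2mE followed. The ranges of each neighbouring pair of C2mE strains overlapped, so their order was not settled for these 4 genes. Both K19-Nog arrays lay below all 3 wild-type arrays for Atp4b, Kcne2 and Slc26a7, by mean differences of -0.02, -0.22 and -0.44 that limma did not call (adjusted p = 0.997, 0.939 and 0.794). With 2 arrays against 3, such a separation can arise without a change of level, and its share over all probe sets was not computed. It is therefore not read as an effect of Nog. For Kcnq1 the fourth place belonged to K19-Wnt1/C2mE, whose arrays overlapped those of K19-Nog but not those of K19-C2mE. For Clic6, K19-Nog/C2mE was last and did not overlap K19-Wnt1/C2mE. For Slc4a2 the 3 C2mE strains overlapped each other.

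**Figure D3:**
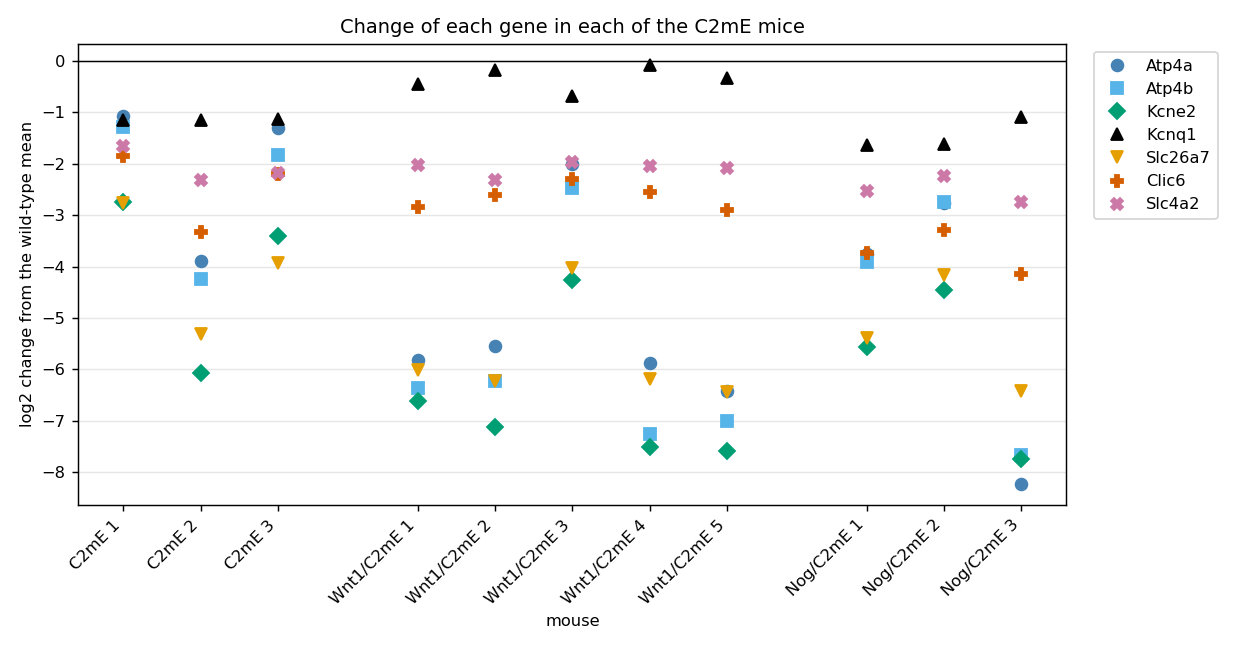
Change of each gene from the wild-type mean (log2) in each of the 11 mice with C2mE. Markers are genes. Atp4a, Atp4b, Kcne2 and Slc26a7 move up and down together from mouse to mouse, Slc4a2 and Clic6 vary less, and Kcnq1 stays nearest to 0 in 10 of the 11 mice.

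The spread between mice of 1 genotype separated the genes. Within the C2mE strains the SD was 2.07 for Atp4a, 2.04 for Atp4b, 1.55 for Kcne2 and 1.10 for Slc26a7, but 0.48 for Clic6, 0.24 for Slc4a2 and 0.23 for Kcnq1. Without C2mE no gene exceeded 0.26. K19-C2mE 2 was the lowest mouse of its strain for all 7 genes. K19-Wnt1/C2mE 3 was the highest of its strain for 6 genes and the lowest for Kcnq1, and K19-Nog/C2mE 3 was the lowest for 6 genes and the highest for Kcnq1. Kcnq1 ran against the pump in deviations from the genotype mean over the 11 arrays. The values were r = -0.79 to Atp4a and -0.82 to Atp4b (rho = -0.74 and -0.72). Kcne2 and Slc26a7 correlated at 0.97, and Kcne2 and Kcnq1 at -0.73. The largest deviations of Kcnq1 and of Atp4a came from the same mice. K19-Wnt1/C2mE 3 deviated by -0.34 for Kcnq1 and by 3.13 for Atp4a. K19-Nog/C2mE 3 deviated by 0.36 for Kcnq1 and by -3.31 for Atp4a. Correlations without these mice were not computed. Among the K19-C2mE mice Kcnq1 spanned only 0.03 while Atp4a spanned 2.81, so that strain shows no opposition.

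Over all 21 arrays the genes whose log2 signal was most like each member by Pearson correlation were also listed, out of 18192. These correlations include the contrast between C2mE and other mice. Nearest to Atp4a were Atp4b (r = 0.992), Apoa1 (0.988) and Smim38 (0.984), and nearest to Atp4b were Smim38 (0.997), Apoa1 (0.996) and Atp4a (0.992). Kcne2 was nearest to Fabp3 (0.997), Cox7a1 (0.997) and Tnni3 (0.994), a fatty acid binding protein, a cytochrome c oxidase subunit and a troponin of striated muscle. Slc26a7 shared Cox7a1 and Tnni3 (both 0.995), with Gpm6a (0.994) next. Clic6 was nearest to Cobl (0.987), Slc16a7 (0.986) and D630004K10Rik (0.985), and Slc4a2 to Myo19 (0.989), Vegfb (0.983) and Aplp1 (0.982). The genes nearest to Kcnq1 were Pitpnc1 (0.938), Cpm (0.935) and Degs1 (0.932), and Atp4a and Atp4b held places 3616 and 3980 in its list, with r = 0.41 and 0.38. The places depend on the measure: by Spearman correlation Atp4b was 178th for Atp4a and Fabp3 162nd for Kcne2, and by deviations within genotypes Degs1 was 2208th for Kcnq1.

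Since Kcnq1 can join other KCNE subunits, these were examined next. KCNE1 is its partner in heart and inner ear, and KCNE3 holds it open in the epithelium of intestine and airway. Kcne3 signals were 4.49, 5.10 and 4.39 in wild-type, 7.64, 6.82, 5.55, 5.07 and 4.64 in K19-Wnt1 and 4.08 and 7.40 in K19-Nog. With C2mE they were 10.30, 10.72 and 10.58 in K19-C2mE, 11.72, 12.21, 12.49, 12.41 and 11.53 with Wnt1 added and 8.65, 10.25 and 11.62 with Nog added. All 11 C2mE mice were above all 10 others, and Kcne3 rose by 5.88, 7.42 and 5.52 (adjusted p = 1.84e-05, 1.08e-07 and 2.76e-05) in the strains where Kcne2 fell. Kcne1 fell (-1.01, -1.25 and -0.84), from a wild-type mean of 6.21 (adjusted p = 0.00125, 2.34e-05 and 0.00396). Kcnq5 passed the test in the compound strains, at -0.72 and -0.52, and stood at -0.39 in K19-C2mE (adjusted p = 0.14), and Kcne4, Kcne1l and Kcnq3 were not called. Of these 6 relatives, 1 rose and 1 fell in K19-C2mE and 1 rose and 2 fell in each compound strain. The share of all probe sets called in either direction was 21.4% in K19-C2mE, 36.5% in K19-Wnt1/C2mE and 28.6% in K19-Nog/C2mE. Within genotypes, Kcnq1 and Kcne3 correlated at r = 0.54 (rho = 0.32) over the 11 C2mE arrays.

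**Figure D4:**
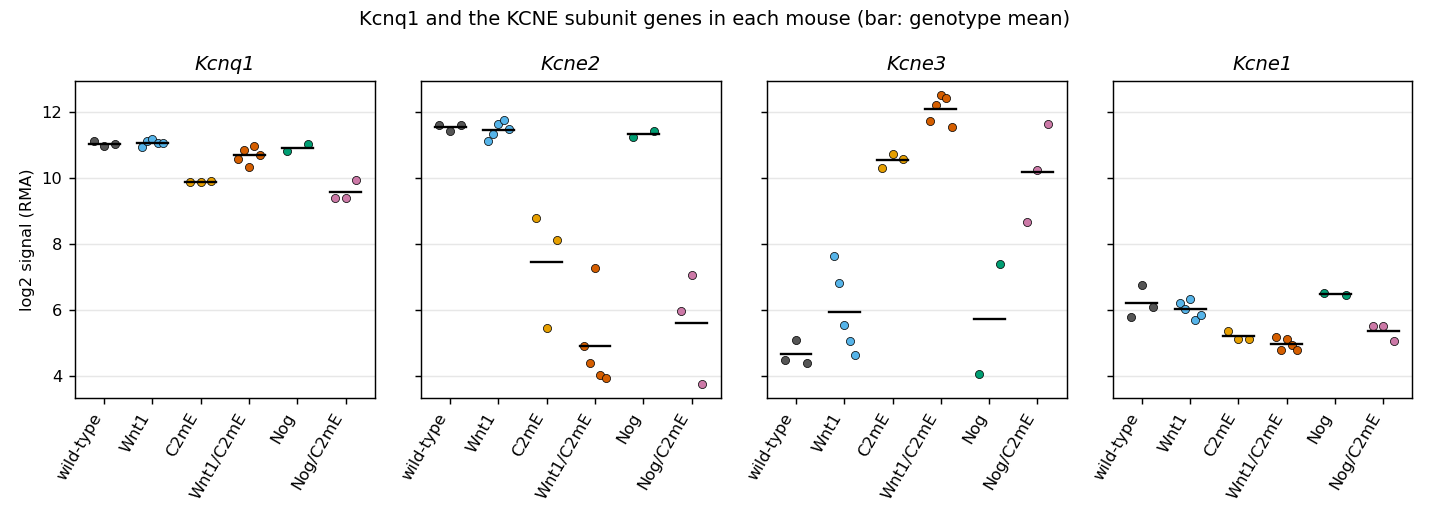
Log2 RMA signal of Kcnq1 and of the beta subunit genes Kcne2, Kcne3 and Kcne1 in each mouse, by genotype. Points are mice and bars are genotype means. Kcne2 is low and Kcne3 high in all C2mE mice, and Kcnq1 is highest among the C2mE strains in K19-Wnt1/C2mE.

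The rest of the acid secretion machinery was read from lists of 53 measured genes outside the set, chosen with earlier results of these data known. Of these, 12 were higher and 15 lower by limma in K19-C2mE, 13 rose and 20 fell with Wnt1 added, and 14 rose and 17 fell with Nog added, whereas 0 changed in K19-Wnt1 and 3 in K19-Nog. The medians of the 53 were -0.03, -0.09 and -0.10 in the C2mE strains, beside -0.04, -0.04 and -0.03 over all probe sets. In K19-C2mE, then K19-Wnt1/C2mE, then K19-Nog/C2mE, the order kept in what follows, 21.4%, 36.5% and 28.6% of all probe sets were called in either direction.

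Upstream of the pump, 4, 6 and 5 of 10 receptor and signalling genes fell and none rose. The histamine H2 receptor Hrh2, through which histamine stimulates acid, differed by -1.51, -1.78 and -1.51, and the gastrin receptor Cckbr by -1.20, -1.37 and -1.34. Receptors that restrain secretion fell too, with the somatostatin receptor Sstr2 at -1.79, -1.91 and -2.0 and the prostaglandin E2 receptor Ptger3 at -2.66, -3.36 and -3.50. The muscarinic receptor Chrm3 was not called in any strain, and the G protein and cyclase genes Gnas, Gnaq, Adcy6 and Prkacb ranged from -0.34 to 0.16.

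On the basolateral side 4, 3 and 3 of 9 genes fell and 0, 2 and 1 rose. The water channel Aqp4 differed by -2.07, -4.38 and -4.50. The sodium/proton exchanger Slc9a4 fell in the K19-C2mE and K19-Wnt1/C2mE strains, at -0.77 and -0.54, with -0.35 in K19-Nog/C2mE (adjusted p = 0.0711). Carbonic anhydrase 2 (Car2), which supplies the protons but is also made by surface cells, was at 0.02, -0.11 and -0.01 and was not called. Of 9 potassium channel genes, the inward rectifiers Kcnj16 (-3.46, -5.62 and -4.65), Kcnj15 (-1.96, -4.52 and -2.88) and Kcnj13 (-1.42, -1.98 and -1.22) fell. Kcnn4, a calcium-activated potassium channel, rose by 1.16, 1.56 and 1.35. Kcnj16 varied with Kcne2 from mouse to mouse (r = 0.94, rho = 0.88 in deviations, 11 arrays).

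Chloride pathways divided. Cftr, the cAMP-activated chloride channel, rose by 6.98, 7.86 and 6.47 from a wild-type mean of 3.91, Clcn2 by 1.88, 1.83 and 1.96 and the calcium-activated channel Ano1 by 0.94, 1.09 and 1.61. The exchanger Slc26a6 fell (-1.74, -2.20 and -1.98), and Bsnd, a beta subunit of ClC-K channels, fell as well (-0.54, -0.66 and -0.50) among 9 chloride genes of which 3, 3 and 4 rose and 3, 2 and 3 fell. The family relatives of the members went both ways. Of 9 SLC26 relatives 2, 1 and 1 rose and 1, 4 and 2 fell. Slc26a2, a sulfate transporter, rose by 1.99, 1.64 and 2.72, while Slc26a10 fell in K19-Wnt1/C2mE (-1.52). Of 4 CLIC relatives 1, 2 and 2 rose and 0, 1 and 1 fell. Clic1 rose by 0.86 in each strain, and Clic3 fell in K19-Wnt1/C2mE and K19-Nog/C2mE (-1.30 and -1.21). Of 8 SLC4 relatives 0, 1 and 1 rose and none fell, the gene that rose being Slc4a4. Slc4a2, as a member, is not counted there. Among 8 relatives of the pump subunits, 4, 4 and 1 rose and 1, 1 and 0 fell. Atp2a3 rose by 0.86, 1.09 and 0.90, and Atp1b2 fell in K19-C2mE and K19-Wnt1/C2mE (-0.54 and -0.57). Atp12a, the pump of colon and skin, rose in K19-C2mE by 1.05 from a low wild-type mean of 3.83. It stood at 0.21 and -0.07 in the compound strains, where it was not called. Genes of canalicular and tubulovesicle traffic rose more often than they fell in these counts (7, 7 and 8 against 2, 5 and 2 of 17). Myo6 rose by 0.74, 0.97 and 0.81, and ezrin (Ezr), the linker of the canalicular membrane to actin, fell (-0.46, -0.81 and -0.73). The largest called changes in K19-Wnt1/C2mE were falls of Rab27b (-0.203, -1.215 and -0.308) and Sytl2 (-0.014, -1.209 and -0.042). Neither was called in the other C2mE strains.

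**Figure D5:**
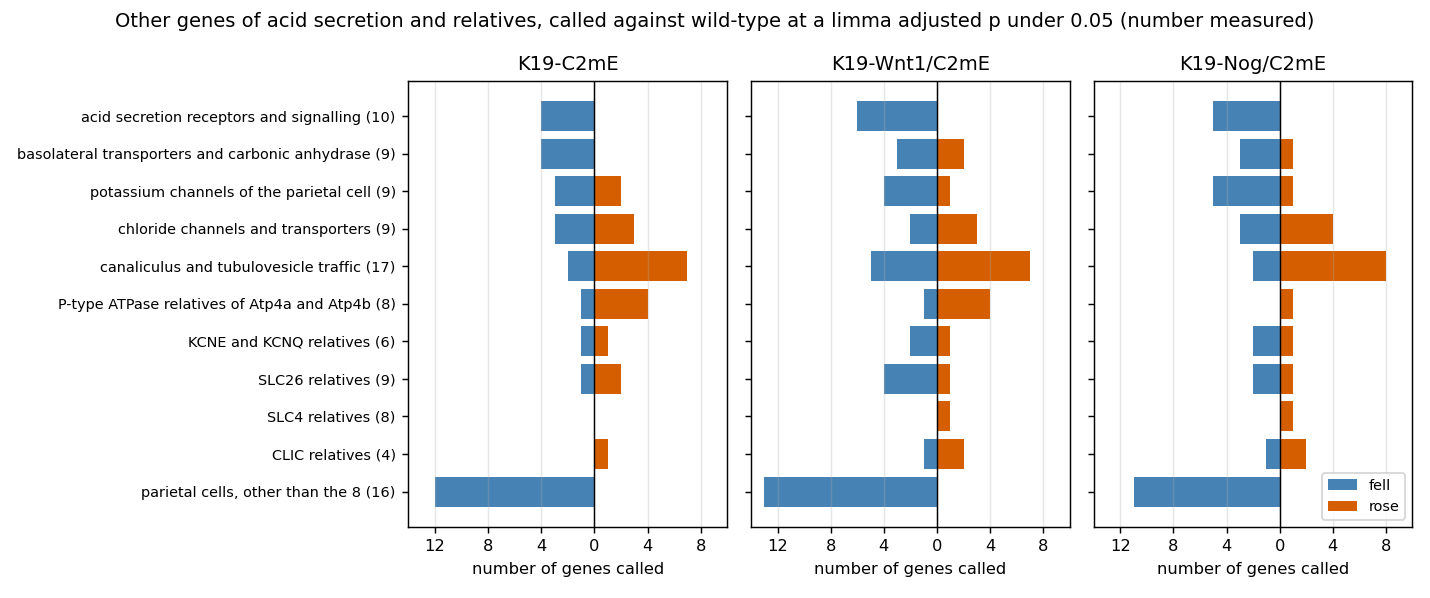
Number of genes called lower (left of 0) or higher (right of 0) against wild-type in each list, for the 3 C2mE strains, with the number measured in brackets. The other parietal cell genes fall without a rise. Traffic and chloride lists hold genes of both directions in each strain, and the ATPase list does so in K19-C2mE and K19-Wnt1/C2mE only.

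Markers of the cell itself and of several of its neighbours moved beside the set. Over all probe sets, 11.1%, 18.9% and 14.4% were called lower in the C2mE strains and 10.3%, 17.6% and 14.2% higher. Of 16 parietal cell genes outside the set, 9 of which also stand in the lists above, 12, 13 and 11 fell and none rose, with medians of -1.74, -1.89 and -1.98. Esrrg, an orphan nuclear receptor, fell (-3.74, -5.92 and -5.40) and followed Kcne2 from mouse to mouse (r = 0.94, 11 arrays). The summed log2 signal of these 16 genes was 15.03 to 15.12 in wild-type, 14.37 to 14.63 in K19-C2mE, 14.13 to 14.27 with Wnt1 added and 13.97 to 14.62 with Nog added. Much of that sum is Car2, which was not called. Without Car2, a choice made after seeing the data, the sum was 14.04 to 14.16 in wild-type, 12.07 to 12.82 in K19-C2mE, 11.25 to 11.86 with Wnt1 and 11.62 to 12.32 with Nog. Of 8 chief cell genes 1, 4 and 4 fell and 1 rose in each strain, Cym, the milk-clotting protease chymosin (5.07, 6.56 and 4.36), with a summed log2 signal of 16.62 to 16.63 in wild-type and 14.34 to 16.05 with C2mE. Mucous neck and metaplasia (SPEM) genes rose in 9, 10 and 9 of 10, from 14.92 to 15.12 in wild-type to 16.52 to 17.16. Endocrine genes fell in 8, 10 and 8 of 11, from 14.73 to 14.78 in wild-type to 9.35 to 12.99. Foveolar genes fell in 0, 5 and 1 of 8 and rose in 1 in each strain, with medians of 0.03, -0.44 and -0.06. Among 8 macrophage genes, 0, 0 and 1 fell and 1, 1 and 2 rose, with medians of 0.0, 0.25 and 0.17. In K19-Nog all 9 smooth muscle genes rose, with a median of 1.90, beside members that were not called. In the C2mE strains 3, 7 and 5 of these 9 smooth muscle genes fell. The part of these marker changes in the fall of the pump and channel genes was not tested.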

How the data were processed

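Glandular stomach RNA of 21 mice was measured, each mouse on an array of its own, extracted with TRIzol and RNeasy and hybridised to Affymetrix GeneChip whole-genome mouse arrays. The authors deposited an intensity for each of 45037 probe sets, made by RMA (background correction, quantile normalisation and median polish) in Affymetrix Power Tools within Rosetta Resolver on all arrays, with versions not given in the sources used here. The authors also deposited log10 ratios of these intensities to the wild-type mean, limited to 2 in either direction, which were used as an alternative. They matched the intensities within 5.31e-05. Because quantile normalisation gives every array the same distribution, differences are relative to the other probe sets of the array.

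Intensities were taken to log2 and fitted with limma 3.58.1 in R 4.3.3, with a coefficient for each genotype over all 21 arrays, and p-values were adjusted by Benjamini-Hochberg over all 45037 probe sets with a threshold of 0.05. Intervals are 95% intervals with 19.0 moderated degrees of freedom. A 2-fold change or more was not required. Single values were also compared by exact permutation of mice, two-sided. Groups are single mice, and their number limits the precision. Comparisons with wild-type share the same 3 mice. Tables and figures were made with Python 3.11.15, numpy 2.4.6, pandas 2.3.3, scipy 1.17.1 and matplotlib 3.10.9, and the scripts were tested on simulated data.

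Probe sets were named from the platform annotation: 34945 had 1 gene, 932 several and 9160 none. The plan counted 8 members, of which 7 have a probe set. The members and gene lists were chosen with earlier results of these data known. Named genes were the members, list genes by role and among up to 4 called genes of a list with the largest difference in K19-Wnt1/C2mE, and the 3 genes most like each member. A few others, such as those not called in a list, were named after their values were seen. Alternatives covered the samples fitted, dim probe sets, centring, variance model, weights, probe set choice, the methods' t-test at an unadjusted 0.01 with 2-fold and after adjustment, Y-linked and squamous levels, and each array left out. That t-test was run here as a pooled test of the 2 genotypes compared. The study gave t-tests at other thresholds, and its 0.01 with 2-fold belonged to a ratio p-value that was not recomputed.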

Additional observations from a re-analysis of the deposited data

Results flagged for a closer look

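K19-Wnt1/C2mE 3 stood far above the other 4 mice of its genotype for 4 genes. Its gap to the next mouse, divided by the range of the 5 mice, was 0.804 for Atp4a, 0.785 for Atp4b, 0.712 for Kcne2 and 0.819 for Slc26a7, each past Dixon's 95% limit for 5 samples. On the check probe set of Slc26a7, 1425841_at, the value was 0.307, below that limit of 0.71. The signals were 12.48 for Atp4a, 12.27 for Atp4b, 7.27 for Kcne2 and 5.64 for Slc26a7, all below every mouse without C2mE. These genes vary together, so the 4 values are not independent, and chance gives about 1 in 20 groups tested, here 18.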

How the results depend on the processing

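Directions of the fall in the C2mE strains against wild-type held in every alternative run, but calls moved. The methods' t-test, both adjusted and at an unadjusted 0.01 with 2-fold, lost Kcne2 in K19-C2mE, Kcnq1 in K19-Wnt1/C2mE and Atp4a and Atp4b in K19-Nog/C2mE, leaving 4, 6 and 5 genes called. Of 2664 gene values under alternatives, 2500 kept direction and side of the threshold, 120 lost a call, 27 gained one and 17, none called, changed sign.

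Without the Y-high arrays, which leave single mice in some genotypes, 1 gene was called in K19-C2mE and 4 in K19-Wnt1/C2mE against wild-type, 4 against K19-Wnt1, and 0 for either compound strain against K19-C2mE. The methods' t-test after adjustment called 0 for K19-Nog/C2mE against K19-Nog, 0 for each compound strain against K19-C2mE and 0 between them. At an unadjusted 0.01 with 2-fold it called 2, 0 and 0 in the first 3 of these. K19-Wnt1/C2mE against K19-C2mE had 1 call with only those genotypes, 1 with a variance trend and 0 with the squamous covariate. K19-Nog/C2mE against K19-C2mE had 0 in the first and last of these, and the compound strains 1 between them with the covariate. The Wnt1 interaction had 1 call (Kcnq1) with dim probe sets left out, with only the genotypes compared, median centring, a variance trend, genotype weights, 1 probe set per gene or the mean of probe sets.

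With the replicate block, K19-Wnt1/C2mE against K19-C2mE had 1 call (Kcnq1), Slc26a7 in K19-Wnt1 was 0.067, Atp4b in K19-Nog 0.062 and Atp4a between compound strains 0.13, and the other 11 counts did not change. The numbers do not pair the mice: deviations of same-numbered arrays had a median correlation of 0.0156 over 38 pairs (-0.348 to 0.183).

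Other sign changes were Atp4b in K19-Nog (0.34) and Clic6 in K19-Wnt1/C2mE against K19-C2mE (0.16) and in the Wnt1 interaction (0.12) with the squamous covariate, and Atp4a between compound strains without the Y-high arrays (0.10). The cause was not tested. Leaving out 1 array gave ranges of -0.61 to 0.13 for Clic6 and -0.17 to 0.16 for Slc4a2 (K19-Wnt1/C2mE against K19-C2mE), -1.87 to 0.85 for Atp4a, -1.60 to 0.043 for Kcne2 and -1.0 to 0.12 for Slc26a7 (between compound strains), -0.57 to 0.17 for Clic6 (Wnt1 interaction) and -0.31 to 0.021 for Slc4a2 (Nog interaction). Counts ran from 5 to 6, 6 to 7 and 7 to 7 against wild-type with C2mE, 0 to 0 for K19-Wnt1 and for K19-Nog, 7 to 7 and 5 to 7 against the single transgenes, 1 to 5, 0 to 2 and 2 to 2 among C2mE strains, and 0 to 1 in each interaction.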

Other observations

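Kcne2 and Clic6 lie on chromosome 16 with 11 annotated genes between them, 7 of which are on the array. Of these, Smim11 was lower by limma in the C2mE strains, at -0.70, -0.78 and -0.79 in the order K19-C2mE, K19-Wnt1/C2mE, K19-Nog/C2mE, and Rcan1, an inhibitor of calcineurin, at -0.55, -0.82 and -0.52. Kcne1 lies there too, while 1700048M11Rik, Fam243 and Gm29805 were not called in any C2mE strain and 2410124H12Rik only in K19-Nog/C2mE (-0.34). Beside Kcnq1 on chromosome 7, the imprinted growth inhibitor Cdkn1c differed by -3.26, -3.29 and -3.53, and Kcnq1 by -1.15, -0.35 and -1.45. The probe sets of the neighbouring Kcnq1ot1 were mixed, from -0.82 to -0.12, from -1.65 to 0.29 and from -0.94 to 0.33. These are values of neighbours, with no test of a shared cause.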
